A study of Mus musculus with 6 samples.

Results

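The 9 genes described here encode 7 apolipoproteins (Apoa1, Apoa2, Apoa4, Apob, Apoc1, Apoe and Apom) and the endocytic receptors Lrp2 and Cubn. They were chosen by name, with earlier results of these data known, and found in the array table by their gene symbol or gene identifier. All 9 were present, with 15 of the 33142 probe sets, and 4 of them (Apoa2, Apom, Lrp2 and Cubn, with 6 probe sets) had a mean for each genotype. Over the whole array table, such means were given for 12.9% of probe sets, and for 2276 of 15364 genes at their brightest probe set. The measurements came from undifferentiated mouse embryonic stem cells (mESCs) on the C57BL/6 background at passage 8, at day 0 of differentiation. WT cells were compared with cells lacking Alkbh1, a dioxygenase of the AlkB family (Alkbh1-/-), with 3 microarrays of each genotype and no treatment of either. The question was which transcripts differ between the genotypes before differentiation starts.

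The lines came from sibling embryos whose parents carried 1 disrupted Alkbh1 allele each, and were maintained with leukemia inhibitory factor on irradiated mouse embryonic fibroblasts. The arrays of a genotype share 1 culture code in the labels, so a genotype cannot be told apart from the line that carries it, and the spread between arrays may be technical. The array reads a transcript through a set of short probes, and a brighter probe set stands for more of its transcript. The values used are means over arrays, not those of each array. From these means alone, the overlap of the arrays and the error of a difference cannot be given, and no difference below was tested. The authors' own test results were not used. Where a gene had several probe sets, the brightest over all arrays stood for it. The other probe sets of a member, and those of a named list gene that have genotype means, are given beside it.

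Apolipoproteins are the protein part of lipoprotein particles, which carry cholesterol, triglycerides and fat-soluble vitamins between cells. Apolipoproteins of the A group are found mostly on high-density lipoproteins, Apob is the scaffold of very low-density and low-density lipoproteins, and Apoe is a ligand through which particles bind receptors of the LDL receptor family. Lrp2 (megalin), a giant member of that family, and its partner Cubn (cubilin) take up lipoproteins and vitamin carriers by endocytosis. In the early mouse embryo, the visceral endoderm is known for making apolipoproteins and for using these receptors to feed the epiblast, and Lrp2 is also known from the neuroepithelium, where it is needed for forebrain development.

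Between the genotypes, Apoa2 and Apom had higher means in Alkbh1-/- mESCs, and Lrp2 and Cubn had lower means. The deposited mean of Apoa2 was 9.74-fold higher in Alkbh1-/- mESCs and that of Apom 2.55-fold higher. The mean of Lrp2 was 4.21-fold lower in Alkbh1-/- mESCs and that of Cubn 1.46-fold lower. Both Cubn means lay below the lower quartile of all probe sets (4.80 on the log2 scale), so the size of its fold is uncertain. With a linear fold over 1.5 as the threshold, 2 of the 9 genes were higher, 1 was lower, 1 lay within the threshold and 5 had no genotype means. Genotype means were given for 2276 genes at their brightest probe set, of which 718 (31.5%) were higher and 764 (33.6%) lower in Alkbh1-/- mESCs past the same fold.

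The table that holds the genotype means lists entries with a nominal p under 0.05 and holds no fold under 1.29, so a gene in it had to differ. The background shares are therefore taken over the 2276 genes selected for a difference. The counts of members were given over all 9 members, of which only 4 were selected in this way. The counts and the shares thus have different bases, and the counts are not read against the shares. At a linear fold over 1.2, every one of the 2276 genes was counted, 47.2% higher and 52.8% lower. At a log2 difference over 1.5, 4.35% were higher and 2.24% lower, among them Apoa2 and Lrp2. The split of higher and lower genes depends on the zero point, and the selection of entries leaves no natural one. Past 1.5-fold, 48.4% of the called genes were higher as deposited. With the median over the 4261 probe sets (0.42 on the log2 scale) as zero, 11.6% of all 2276 genes were higher and 52.8% lower, so that 18.1% of those called were higher. With the median over genes (−0.44) as zero, 47.2% were higher and 8.08% lower, so that 85.4% of those called were higher. Apoa2 and Apom lay above and Lrp2 below the fold with either zero point, while Cubn passed it with the first and not with the second.

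To show an annotated start region of each gene past the fold, 300 bases around its outermost start site are given, 250 before it and 50 from it on. Which start site is used in these cells was not tested. The sequences are those of RefSeq on build GRCm38.p6, read 5′ to 3′ on the strand of the gene: Apoa2 at chr1:171221314-171221613 on the plus strand, Apom at chr17:35131752-35132051 on the minus strand and Lrp2 at chr2:69585980-69586279 on the minus strand. Capitals mark the CG dinucleotides.
Apoa2: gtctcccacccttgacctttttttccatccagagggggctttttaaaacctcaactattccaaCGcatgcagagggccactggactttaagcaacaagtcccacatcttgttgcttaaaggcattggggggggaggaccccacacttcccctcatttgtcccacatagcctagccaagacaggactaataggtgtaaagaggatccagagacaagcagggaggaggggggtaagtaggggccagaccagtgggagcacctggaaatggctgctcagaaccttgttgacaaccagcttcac
Apom: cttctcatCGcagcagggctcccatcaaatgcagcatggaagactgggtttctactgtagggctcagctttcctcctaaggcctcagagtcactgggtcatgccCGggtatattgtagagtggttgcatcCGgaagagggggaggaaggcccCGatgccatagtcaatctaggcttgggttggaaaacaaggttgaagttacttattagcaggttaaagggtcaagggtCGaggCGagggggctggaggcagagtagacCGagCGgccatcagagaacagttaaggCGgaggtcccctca
Lrp2: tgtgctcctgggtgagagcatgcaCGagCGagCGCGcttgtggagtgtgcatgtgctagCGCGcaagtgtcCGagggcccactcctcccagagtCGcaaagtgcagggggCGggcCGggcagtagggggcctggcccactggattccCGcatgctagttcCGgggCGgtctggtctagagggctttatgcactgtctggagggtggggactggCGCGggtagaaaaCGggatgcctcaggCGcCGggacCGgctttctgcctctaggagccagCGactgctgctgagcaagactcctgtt
The Apoa2 sequence holds 1 CG, that of Apom 9 and that of Lrp2 20, and the median over 32851 promoter sequences of the same length is 7. Fewer CG than in the Apoa2 sequence were found in 5.43% of all promoter sequences, and fewer than in the Lrp2 sequence in 73.5%. Their GC content was 52.3% for Apoa2, 54.7% for Apom and 65.0% for Lrp2. Apoa2 has another annotated start site, start site 2, downstream of the outermost one, where the sequence of the same length held 3 CG. Fewer were found in 23.3% of all promoter sequences, and its GC content was 47.0%.

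Of the 9 genes, 8 have a promoter sequence in the RefSeq table used, Apoc1 being without one. Their outermost sequences were searched on both strands for the TATA box and 4 short motifs of factors known to act on liver and endoderm genes, of which 3 are reported here. The letters TATAAA of the TATA box stood in the sequence of Apob and in 13.6% of all promoter sequences. The nuclear receptor motif AGGTCA was found in the sequence of Apoa2, as TGACCT, and in 16.3% of all. The motif AGATAA, which binds factors of the Gata family, was in none of the 8 outermost sequences and in 11.2% of all. The same held for the forkhead motif TGTTTAC, with 3.65% of all. Inner start sites of Apoa2 and Apoe also held matches of the reported motifs: the TATA box letters and the forkhead motif at start site 2 of Apoa2, the TATA box letters at start site 2 of Apoe and the forkhead motif at its start site 3. A match of so few letters is a description of the sequence and says nothing of whether a factor binds there.

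**Figure D1:**
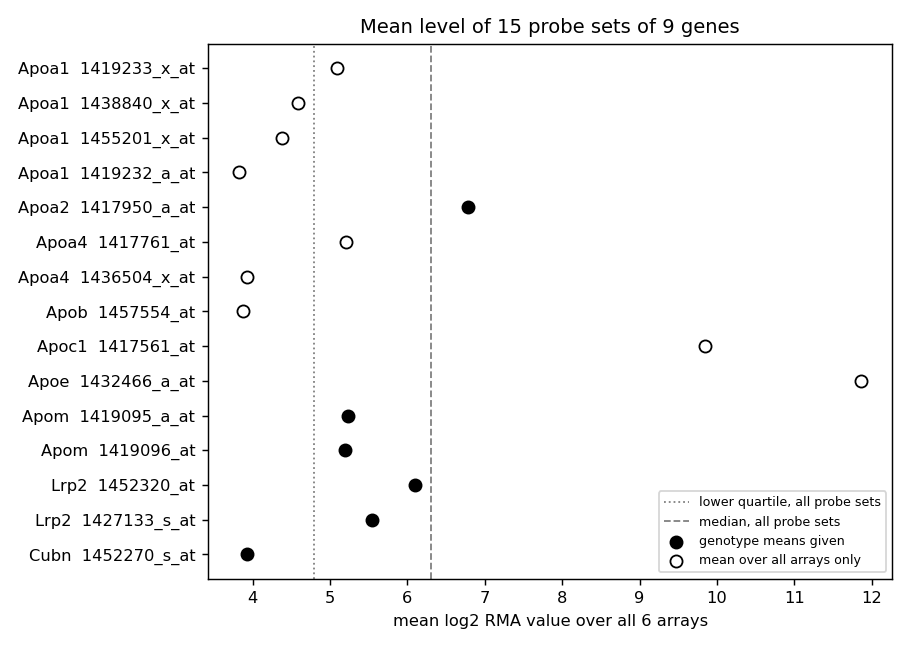
Each point is the mean log2 value of a probe set over all 6 arrays, with filled points for the 6 probe sets that also have genotype means and open points for the other 9. Apoe and Apoc1 lie at 11.86 and 9.85, and 12 of the 15 probe sets lie below the median of all probe sets (6.31, dashed line; lower quartile 4.80, dotted line).

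Considering first the apolipoproteins of high-density lipoproteins, Apoa2 was measured by probe set 1417950_a_at. Its deposited mean intensity was 35.3 in WT mESCs and 344 in Alkbh1-/- mESCs, which on the log2 scale is 5.14 and 8.42. The log2 difference of the means was 3.28. Ranked among the 2276 genes with genotype means, Apoa2 had the 12th highest difference. Its WT mean lay below the median of all probe sets (6.31). There, the size and rank of a difference depend on how low the array reads a scarce transcript. The genes whose pair of genotype means lay nearest to that of Apoa2 on the log2 scale were Dpys, Elobl and Nefm, at distances of 0.36, 0.52 and 0.59 over these 2 means. Their own log2 differences were 3.74, 2.55 and 4.11.

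Apoa1, the main structural protein of high-density lipoproteins, and Apoa4, made mostly by the intestine, had no genotype means. The 4 probe sets of Apoa1 had mean log2 values from 3.82 (1419232_a_at) to 5.09 (1419233_x_at) over all arrays. The 2 probe sets of Apoa4 had mean log2 values of 3.93 (1436504_x_at) and 5.20 (1417761_at). All 6 values lie below the median of all probe sets (6.31), whose means ran from 3.22 to 14.67. Brightness differs between probe sets for reasons of probe sequence, so these levels do not rank transcripts by amount.

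Apom, a lipocalin that carries sphingosine-1-phosphate on lipoproteins, was measured by 2 probe sets. At 1419095_a_at, the deposited mean intensity was 23.5 in WT and 59.8 in Alkbh1-/- mESCs (4.55 and 5.90 on the log2 scale), a log2 difference of 1.35. At 1419096_at, the mean intensity was 29.2 in WT and 46.3 in Alkbh1-/- mESCs (4.87 and 5.53 on the log2 scale), a log2 difference of 0.66. Both probe sets had the higher mean in Alkbh1-/- mESCs, but the fold was 2.55 at one and 1.59 at the other. All 4 means of Apom lay below the median of all probe sets, where the size of a difference depends on how low the array reads a scarce transcript.

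**Figure D2:**
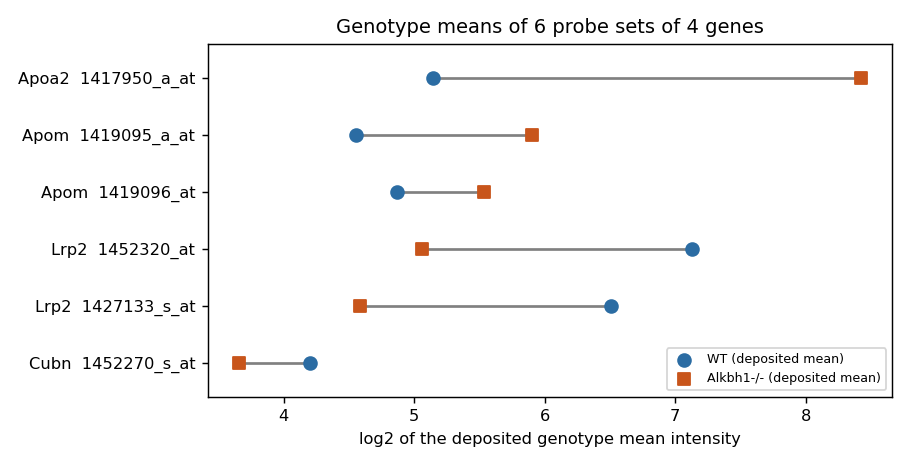
The deposited mean of each genotype is shown on the log2 scale for the 6 probe sets with genotype means, with WT as circles and Alkbh1-/- as squares and a line for their difference. The Alkbh1-/- mean is to the right for Apoa2 (8.42 against 5.14) and for both probe sets of Apom, and to the left for both probe sets of Lrp2 and for Cubn.

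Turning to the apolipoproteins of triglyceride-rich particles and remnants, Apoe and Apoc1 were the brightest members. The probe set of Apoe, 1432466_a_at, had a mean log2 value of 11.86 over all arrays, above 97.3% of all probe sets. Apoc1, a small exchangeable apolipoprotein that inhibits lipoprotein uptake and lipolysis, had a mean log2 value of 9.85 (1417561_at). Neither had genotype means, so nothing can be said here of a difference between the genotypes. Apob was at 3.88 (1457554_at) over all arrays, with 3.44% of probe sets below it, and also had no genotype means. Apoe and Apoc1 are direct neighbours on chromosome 7, in a cluster that also holds Apoc4 and Apoc2, and Apoa1 and Apoa4 lie on chromosome 9 with Apoc3 between them and Apoa5 next to Apoa4.

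Lrp2 was the receptor with the larger difference. At 1452320_at, the deposited mean intensity was 140.0 in WT and 33.3 in Alkbh1-/- mESCs (7.13 and 5.06 on the log2 scale), a log2 difference of −2.07. At the other probe set, 1427133_s_at, it was 91.2 in WT and 24.0 in Alkbh1-/- mESCs (6.51 and 4.59 on the log2 scale), a log2 difference of −1.92. The folds of 4.21 and 3.80 at the 2 probe sets lay close to each other, and both means of Alkbh1-/- mESCs were below the median of all probe sets. Lrp2 had the 17th lowest difference of the 2276 genes. In RNA from whole cultures, fewer cells that express a gene and less RNA per cell cannot be told apart.

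Cubn, the receptor for the vitamin B12 carrier complex and a partner of Lrp2, was measured by 1452270_s_at. Its deposited mean intensity was 18.5 in WT and 12.6 in Alkbh1-/- mESCs (4.21 and 3.66 on the log2 scale). The log2 difference of −0.55 was just inside the 1.5-fold threshold of 0.58. Both means were among the lowest values of the array, and with means raised to a floor of 4 on the log2 scale the difference was −0.21.

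**Figure D3:**
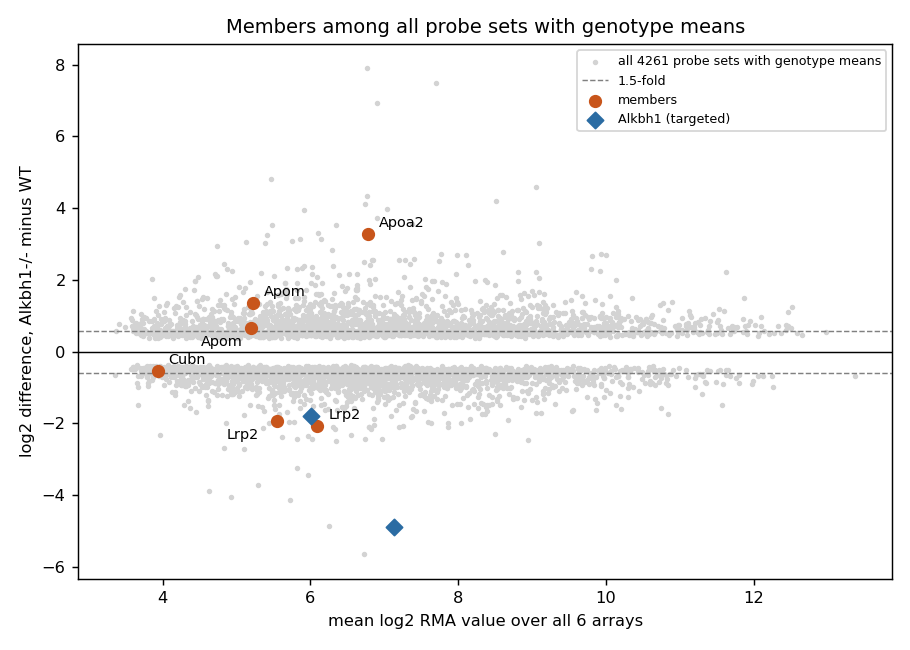
The log2 difference between the genotype means is plotted against the mean log2 value over all arrays for the 4261 probe sets with genotype means in grey, the 6 member probe sets in orange and Alkbh1 as diamonds; dashed lines mark a 1.5-fold difference. The band without points around 0 reflects the selection of the listed entries, Apoa2 lies at 3.28 and Lrp2 at −2.07 and −1.92, and Cubn lies within the dashed lines.

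The targeted gene and the sex chromosomes were used to check the lines. The mean of Alkbh1 was 9.57 in WT and 4.69 in Alkbh1-/- mESCs on the log2 scale at 1434660_at, in the direction of the labels. At its other probe set, 1438681_at, the direction was the same but the difference smaller, with 6.91 in WT and 5.11 in Alkbh1-/- mESCs. The Y-linked genes Eif2s3y, Ddx3y and Kdm5d had log2 means of 9.55, 8.68 and 6.95 in WT and of 3.90, 3.82 and 2.91 in Alkbh1-/- mESCs at their brightest probe sets. On the X chromosome, 261 of the 282 genes with genotype means (92.6%) were higher in Alkbh1-/- mESCs, with a median log2 difference of 0.75, against 40.9% of the 1989 genes outside the sex chromosomes, with a median of −0.50. None of the 4 members with genotype means is X-linked. The lines thus differed in X- and Y-linked transcripts as well as in Alkbh1, and the part of this in the differences of the members cannot be told apart from that of the genotype.

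The apolipoproteins outside the 9 genes were then examined as a fixed list of 9, of which 8 were in the table and 3 had genotype means. Apoc2, the activator of lipoprotein lipase, had a log2 mean of 5.25 in WT and 6.55 in Alkbh1-/- mESCs, a log2 difference of 1.31. Apod, a lipocalin, had a log2 difference of 0.87. Clu (apolipoprotein J), a secreted chaperone, had a log2 difference of −0.54, and its other 3 probe sets were between −0.65 and −0.49. Thus 2 of the 3 were higher past 1.5-fold and 0 lower, with a median of 0.87. The median over all 2276 genes was −0.44 and that over the 4261 probe sets 0.42; as the table holds no difference near 0, the sign of this median depends on the unit counted, and the list medians are not read against it. Apoa5, Apoc3, Apoc4, Apoh and Apon had no genotype means.

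Of 17 other lipoprotein receptors, 14 were in the table and 2 had genotype means, 1 in each direction past the fold. Sorl1, a sorting receptor of the LDL receptor family, had a log2 difference of 0.74, and Lsr, another lipoprotein receptor, one of −0.69. The other 2 probe sets of Sorl1 with genotype means were at 0.53 and 0.57, and the median of the list was 0.02. Lrp1 and Vldlr, which also bind Apoe, were at 7.88 and 6.88 on the log2 scale over all arrays, without genotype means.

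Among 11 partners and adaptors of endocytosis, all of them in the table, 3 had genotype means. Dab2, the adaptor that links Lrp2 to clathrin, had a log2 mean of 6.32 in WT and 5.40 in Alkbh1-/- mESCs, a log2 difference of −0.92. The other 3 probe sets of Dab2 had no genotype means. Amn (amnionless), which brings Cubn to the cell surface, had a log2 difference of −0.54. Clcn5, an endosomal chloride and proton exchanger whose gene is X-linked, was higher, with a log2 difference of 0.49 at its brightest probe set and of 0.46, 0.70 and 0.91 at the other 3 with genotype means, so that 2 of these 4 probe sets passed the fold. Counted by the brightest probe set, the list had 0 genes higher and 1 lower past 1.5-fold, with a median of −0.54. Lrpap1, the chaperone of Lrp2, had a mean log2 value of 10.99 over all arrays and no genotype means.

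The carriers taken up by Lrp2 and Cubn were a list of 8, with 6 in the table and 2 with genotype means. Rbp4, the retinol carrier, had a log2 difference of −0.37 and Trf, the iron carrier transferrin, one of −0.56, so 0 of them passed the fold and the median was −0.47. Of 21 genes of lipoprotein assembly, lipid transfer and lipolysis, 17 were in the table and 3 had genotype means, 1 higher and 1 lower past the fold. Lipc (hepatic lipase) had a log2 difference of 0.85, Lipg (endothelial lipase) one of −0.38 and Soat1, which esterifies cholesterol, one of −0.74. The other 4 probe sets of Soat1 were between −1.47 and −0.59, and the list median was −0.38. Mttp, which loads lipid onto Apob, had a mean log2 value of 5.39 over all arrays and no genotype means.

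**Figure D4:**
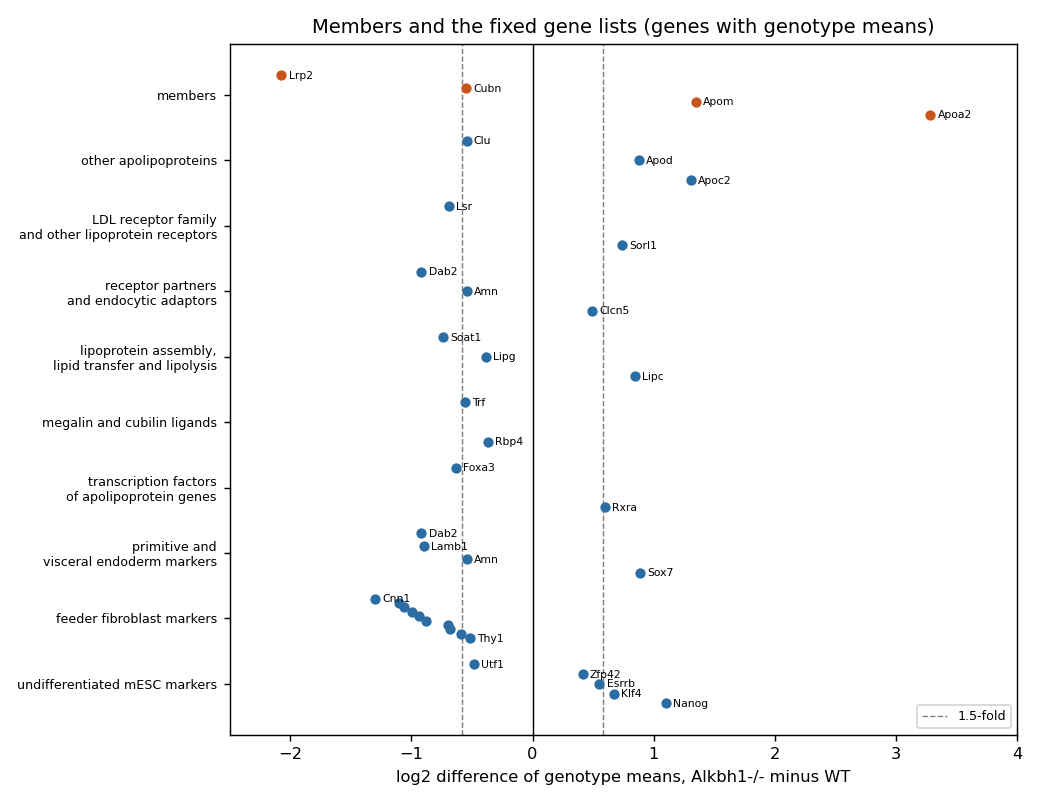
Each point is the log2 difference between the genotype means of a gene at its brightest probe set, for the 4 members (orange) and for the genes of 9 fixed lists that have genotype means (blue); dashed lines mark a 1.5-fold difference. Lists with over 6 genes name their end points only; the 10 feeder fibroblast genes all lie below 0, from −1.30 (Cnn1) to −0.52 (Thy1).

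Transcription factors known to act on apolipoprotein genes were all in the table, and 2 of 20 had genotype means. Foxa3 had a log2 difference of −0.63 and Rxra, the partner of many lipid-sensing nuclear receptors, one of 0.60, and the list median was −0.02. The other probe set of Rxra had no genotype means. Hnf4a was at 5.23 on the log2 scale over all arrays, without genotype means.

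The visceral endoderm, the tissue that expresses many of these genes together, was examined by 23 markers of primitive and visceral endoderm. Of 21 in the table, 14 had a mean log2 value below the median of all probe sets. The factors Gata4, Gata6, Sox17 and Foxa2 were at 4.47, 4.45, 5.31 and 3.92 over all arrays, and none of them had genotype means. Of the 4 markers with genotype means, Sox7 had a log2 difference of 0.88, and Dab2, Lamb1 and Amn had log2 differences of −0.92, −0.90 and −0.54. Past 1.5-fold, 1 was higher and 2 were lower, and the median was −0.72. Of the 4 other probe sets of Lamb1, 1 had genotype means, with a log2 difference of −0.91, and none of the 3 others of Dab2 had them. The summed mean intensity of the 4 was 1900.1 in WT and 1068 in Alkbh1-/- mESCs, of which Lamb1, a laminin chain, made up 1729 and 929, so the sum is mostly that of 1 gene. Other markers on the list were bright: Sparc, the brightest, was at 11.55 over all arrays, without genotype means, and Lamb1 was at 10.31. Low levels of some markers and high levels of others do not tell whether endoderm cells were present. The part of such cells in the differences of Lrp2, Cubn and Apoa2 was not tested.

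Fibroblast transcripts were examined because the cultures were grown on feeder cells. All 21 markers were in the table and 10 had genotype means, each of them lower in Alkbh1-/- mESCs and 9 past 1.5-fold. Cnn1, a smooth muscle and fibroblast calponin, had the lowest log2 difference, −1.30, followed by Tagln at −1.11 and the collagen chains Col1a1 and Col5a2 at −1.06 and −0.99. The other probe sets of these collagens were at −1.02 and −1.04. The median was −0.91, and the summed mean intensity of the 10 was 13704 in WT and 7510 in Alkbh1-/- mESCs. The list's brightest gene, Thbs1, had a mean log2 value of 12.09 over all arrays and no genotype means. The fibroblast markers Fap and Lum, at 3.87 and 6.21, were the 2 of the 21 below the median of all probe sets. Of the endoderm markers with genotype means, Dab2, Lamb1 and Amn were also lower and Sox7 was higher. Lrp2 and Cubn were lower, at −2.07 and −0.55, and Apoa2 and Apom were higher, at 3.28 and 1.35. The part of fibroblast RNA in any of these differences was not tested.

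The cell type given by the labels was checked with 10 markers of undifferentiated mESCs, all in the table with mean log2 values above the median of all probe sets. Pou5f1 was at 12.64, Sox2 at 12.66 and Tdgf1 at 13.16 over all arrays. Of the 5 with genotype means, Nanog, Klf4, Esrrb and Zfp42 were higher in Alkbh1-/- mESCs, with log2 differences of 1.10, 0.67, 0.55 and 0.41, and Utf1 was lower, at −0.49. Other probe sets with genotype means were at 0.71 for Klf4, 0.50 and 0.59 for Esrrb and −0.39 for Utf1. Past 1.5-fold, 2 were higher and 0 lower, and the median was 0.55.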

How the data were processed

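RNA of undifferentiated WT and Alkbh1-/- mESCs was hybridized to Affymetrix whole-genome arrays, and the authors normalized all 6 arrays together with the robust multi-array algorithm (RMA). In the larger deposited table, log2 values are the authors' mean over all arrays for 33142 probe sets, chosen by a filter not given in the sources used here. The smaller deposited table, made by a service company, gives the geometric mean intensity of each genotype for 4326 entries. Per the file headers, 7320 probe sets passed a filter and those with a nominal p under 0.05 are listed. According to the deposited description, the class of WT arrays is misnamed in it. Both tables also hold the authors' own comparison (fold changes, test statistics and p-values), which was not used.

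In the smaller table, values and identifiers are out of step. The mean of the 2 log2 genotype means equalled that of a probe set in the larger table within 1e-06 for 4261 entries, of which 8 stood beside the same identifier, although 4258 of the identifiers occur among the matched probe sets. By printed identifier, the means differed by a median of 1.72. Genotype means were therefore assigned by the nearest mean, a step tested on simulated data, and the other 65 entries were left out. For 29 entries more than 1 probe set lay within that distance, none of them a member's.

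A limma fit had been planned for single arrays. With means of a genotype alone, differences are those of the log2 means, computed here, with no test and no error; the number of arrays limits precision. Probe sets were named through RefSeq genes (GRCm38.p6) by gene identifier, accession or symbol, 28216 (85.1%) in all, as 15364 genes. Named are the members, Alkbh1, 3 Y-linked genes, genes of the fixed lists with genotype means (up to 4 examples a list) and the 3 genes nearest to the member with the largest difference; Zfp42, Thy1 and list genes without genotype means fall outside this rule and were picked with their values in view. Some genes of the lists are not reported here by name. The members and lists were chosen with earlier results of these data known. Alternatives were the mean over probe sets, centring, a floor of 4, other folds and assignment by printed identifier. Python 3.11.15, pandas 2.3.3, NumPy 2.4.6 and matplotlib 3.10.9 were used.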

Additional observations from a re-analysis of the deposited data

How the results depend on the processing

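Apoa2, Apom, Lrp2 and Cubn had the same direction with the mean over probe sets, a floor and both centrings, while their sizes changed. With genotype means taken by the identifier printed beside them, the log2 differences were 0.97 for Apoa2, 0.49 for Apom, −0.76 for Lrp2 and −0.53 for Cubn, and 1 member in place of 2 was higher past the fold. These values belong mostly to other genes, so their signs carry no information on the members. Under that reading the other probe set of Lrp2 was at 0.48, and Alkbh1 at −1.22 and 0.60. After centring on the median of all probe sets with genotype means, they were 2.86, 0.93, −2.49 and −0.97, and 2 members in place of 1 were lower. Centred on the median of genes, an alternative chosen after seeing the data, they were 3.73, 1.79, −1.63 and −0.10, with 2 members higher and 1 lower. The mean over probe sets gave 1.01 for Apom and −1.999 for Lrp2, and the floor of 4 gave −0.21 for Cubn. At a log2 difference over 1.5, 1 member was higher, and at a linear fold over 1.2, 2 were lower. Allowing only matches to a single probe set, also chosen after seeing the data, could not change these 4, as each matched 1 probe set alone. With the median over probe sets in place of the brightest, mean log2 levels were 4.49 for Apoa1, 4.57 for Apoa4, 5.21 for Apom and 5.82 for Lrp2.

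Centring on the median of probe sets moved the list medians to 0.45 for other apolipoproteins, −0.40 for lipoprotein receptors (a change of sign), −0.96 for endocytic partners, −0.80 for lipoprotein assembly, −0.89 for carriers, −0.44 for transcription factors, −1.14 for endoderm, −1.33 for fibroblasts and 0.13 for mESC markers. Centring on the median of genes gave, in the same order, 1.32, 0.47, −0.099, 0.061, −0.021, 0.43, −0.28, −0.47 and 1.00, the medians of lipoprotein assembly and transcription factors changing sign. The constants of both centrings are set by which entries were listed. The mean over probe sets gave −0.038 for lipoprotein receptors, again a change of sign, −0.94 for fibroblasts and 0.53 for mESC markers, and the floor gave −0.27 for lipoprotein assembly. No paired analysis was possible because the tables give means of a genotype and no values of single arrays; leaving out a replicate was not run for the same reason. Low brightness limits Apom, Cubn and the lower mean of Apoa2 and Lrp2, and genes without genotype means have no direction here.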
